A study of Mus musculus with 9 samples.

Results

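The C/EBP and CITED transcription regulators linked to exercise-induced heart growth were examined in whole hearts of 9 mice. The 7 genes were Cebpa, Cebpb, Cebpd, Cebpg, Cited1, Cited2 and Cited4, each taken as the probe set that carries its symbol in the authors' table, out of 19760 probe sets with 1 gene symbol and 45037 tested. Hearts came from male FVB mice aged 15 weeks. GlycoHi mice express a phosphatase-deficient and GlycoLo mice a kinase-deficient phosphofructokinase 2 in the heart, and WT mice are wild type, with 3 mice and 1 Affymetrix array per mouse in each group. The sources used here do not give the promoter that drives either transgene, or say whether a line came from 1 founder. Phosphofructokinase 2 makes and breaks down fructose 2,6-bisphosphate, an activator of glycolysis, so the comparisons ask how these genes differ when this control point is set high or low. All levels are log2 values after robust multiarray averaging (RMA), a difference of 1 being a doubling, and levels are compared between groups for a gene and never between genes.

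C/EBP proteins are basic leucine zipper (bZIP) factors that bind DNA as dimers. C/EBP beta, from Cebpb, is known in mouse heart as a brake on growth that endurance exercise lowers, and Cited4 as a gene that rises when this brake is released. C/EBP alpha and delta are best known from fat cell differentiation and the acute phase response, and C/EBP gamma, which lacks an activation domain of its own, pairs with other bZIP proteins such as ATF4. CITED proteins do not bind DNA but bind the coactivators CBP and p300 through an acidic carboxy-terminal region. CITED2 competes with hypoxia-inducible factor for these coactivators.

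Across the 7 genes, 2 separated the transgenic lines from each other: Cebpg was higher and Cited4 lower in GlycoHi than in GlycoLo hearts. Cebpg also rose in GlycoHi against WT, by 0.60 ± 0.08 on the log2 scale (SE, 3 mice per group), a ratio of 1.52. Cited4 lay above WT in GlycoLo and below WT in GlycoHi, by 0.53 and -0.55, and neither of those differences passed the test. Cebpb was lower by 0.55 in GlycoLo than in WT and did not pass either. A gene was called at an adjusted p under 0.05 in limma's moderated test, with Benjamini-Hochberg adjustment over all 45037 probe sets. The 250 bases before the annotated start of Cebpg, Cited4 and Cebpb are shown because these are the genes the results turn on. They come from RefSeq on GRCm38.p6, 5′ to 3′ on the strand of the gene, and capitals mark the motif matches named after them.
Cebpg, chr7:35056567-35056816, minus strand: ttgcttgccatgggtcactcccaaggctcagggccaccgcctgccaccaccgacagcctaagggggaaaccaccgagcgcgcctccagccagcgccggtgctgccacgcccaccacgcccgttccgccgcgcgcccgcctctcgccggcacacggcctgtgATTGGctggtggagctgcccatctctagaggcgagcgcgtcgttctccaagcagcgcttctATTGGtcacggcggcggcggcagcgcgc
Cited4, chr4:120666313-120666562, plus strand: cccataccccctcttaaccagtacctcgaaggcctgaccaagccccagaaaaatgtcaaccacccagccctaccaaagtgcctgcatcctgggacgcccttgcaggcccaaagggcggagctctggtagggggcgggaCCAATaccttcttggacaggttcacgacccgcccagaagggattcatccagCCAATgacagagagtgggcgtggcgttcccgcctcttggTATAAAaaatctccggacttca
Cebpb, chr2:167688665-167688914, plus strand: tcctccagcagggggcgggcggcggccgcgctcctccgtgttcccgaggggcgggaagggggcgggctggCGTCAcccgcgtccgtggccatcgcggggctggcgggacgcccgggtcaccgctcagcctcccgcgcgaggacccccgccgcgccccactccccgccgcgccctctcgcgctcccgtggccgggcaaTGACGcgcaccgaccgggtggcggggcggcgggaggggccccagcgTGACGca

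The 3 windows differ in composition. G and C make up 70.8% of the bases for Cebpg, 58.0% for Cited4 and 81.6% for Cebpb, against a median of 52.4% over 32841 windows of the same length. On either strand 6 motifs were searched. They were the CCAAT box, the TATA box spelled TATAAA, the core of the cyclic AMP response element spelled TGACG, the composite C/EBP and ATF element spelled TGATGNAA, the C/EBP site spelled TTGCNNAA and the E-box spelled CACGTG. The marked matches do not overlap. The Cebpg window holds 2 CCAAT boxes, both on the opposite strand (read ATTGG) and beginning 89 and 28 bases before the start. The Cited4 window has 2 CCAAT boxes as well, beginning 112 and 61 bases upstream, and a TATA box 22 bases upstream. Of all windows, 33.9% hold a CCAAT box, 10.09% hold 2 or more, and 12.4% hold TATAAA. The Cebpb window carries TGACG 3 times, beginning 180, 53 and 7 bases upstream, the farthest on the opposite strand. TGACG is present in 17.8% of all windows and 2 or more times in 3.90%. No match to the composite element, the C/EBP site or the E-box lies in these 3 windows, motifs found in 3.4%, 9.6% and 6.0% of all windows. Of the 7 genes, 6 are in the promoter table, and Cebpd is named only.

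Among the C/EBP genes, Cebpg (probe set 1451639_at) showed the clearest separation. Its level was 7.34, 7.34 and 7.37 in GlycoHi hearts, 6.48, 6.61 and 6.78 in GlycoLo hearts, and 6.79, 6.66 and 6.80 in WT hearts. All 3 GlycoHi hearts stood above every other heart, while GlycoLo and WT overlapped. The rise in GlycoHi against WT had a 95% interval of 0.42 to 0.78 and an adjusted p = 0.00359. Against GlycoLo the difference was 0.73 ± 0.08 (interval 0.55 to 0.91, adjusted p = 0.00110), a ratio of 1.66. In GlycoLo against WT it was -0.12 ± 0.08 (interval -0.30 to 0.06, adjusted p = 0.670). The order was therefore GlycoHi above WT and GlycoLo, and these lower 2 groups did not differ beyond their spread.

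Cebpb (1418901_at), whose protein restrains heart growth in the mouse, had its lowest values in GlycoLo. It measured 9.09, 9.24 and 9.48 in GlycoHi hearts, 9.01, 8.91 and 9.0 in GlycoLo hearts and 9.50, 9.20 and 9.89 in WT hearts. Every GlycoLo heart lay below every WT and every GlycoHi heart, and the GlycoHi and WT ranges overlapped. The GlycoLo hearts were close together (SD 0.05), the WT hearts spread widely (SD 0.35). The difference in GlycoLo against WT was -0.55 ± 0.15 (interval -0.89 to -0.21), a ratio of 0.682, with an unadjusted p = 0.00427 and an adjusted p = 0.267. In GlycoHi against WT it was -0.26 ± 0.15 (interval -0.60 to 0.08, adjusted p = 0.485), and in GlycoHi against GlycoLo 0.29 ± 0.15 (interval -0.05 to 0.63, adjusted p = 0.464). WT replicate 3 was the highest heart of all, and without it the GlycoLo difference from WT was -0.37 (adjusted p = 0.464). The order of the means was WT, GlycoHi, GlycoLo, with no neighbouring pair separated by the test.

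No difference of Cebpa or Cebpd between genotypes passed the test. Cebpa (1418982_at), a driver of fat cell and granulocyte differentiation, had 5.23, 5.23 and 5.52 in GlycoHi hearts, 5.26, 5.52 and 5.08 in GlycoLo hearts and 5.35, 5.49 and 5.61 in WT hearts. The ranges overlapped in all 3 pairs, and the WT mean was the highest. Its differences from WT were -0.16 ± 0.12 in GlycoHi (interval -0.43 to 0.11) and -0.19 ± 0.12 in GlycoLo (interval -0.46 to 0.07), with adjusted p = 0.611 and 0.651. Cebpd (1423233_at), an acute phase factor, had 7.48, 8.23 and 8.11 in GlycoHi hearts, 8.11, 7.98 and 8.28 in GlycoLo hearts and 7.99, 7.44 and 8.07 in WT hearts. Here 1 GlycoHi and 1 WT heart lay well below the others, and no pair of groups was apart. The Cebpd differences from WT were 0.11 ± 0.20 in GlycoHi (interval -0.34 to 0.55) and 0.29 ± 0.20 in GlycoLo (interval -0.16 to 0.73), with adjusted p = 0.863 and 0.694. Between the lines, GlycoHi minus GlycoLo was 0.04 ± 0.12 for Cebpa (interval -0.23 to 0.30) and -0.18 ± 0.20 for Cebpd (interval -0.63 to 0.27).

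Cited4 (1425400_a_at), the CITED gene tied to exercise, lay on opposite sides of WT in the 2 lines. It measured 6.16, 5.67 and 5.82 in GlycoHi hearts, 7.04, 6.65 and 7.20 in GlycoLo hearts and 6.50, 6.47 and 6.33 in WT hearts. No heart of one genotype overlapped with another: every GlycoLo heart was above every WT heart, and every WT heart above every GlycoHi heart. Between the lines it fell by 1.08 ± 0.15 in GlycoHi against GlycoLo (interval -1.41 to -0.75, adjusted p = 0.00416), a ratio of 0.474. Against WT the difference was -0.55 ± 0.15 in GlycoHi (interval -0.88 to -0.22, unadjusted p = 0.00387, adjusted p = 0.103). In GlycoLo it was 0.53 ± 0.15 (interval 0.20 to 0.86, unadjusted p = 0.00473, adjusted p = 0.273). Both lines are set against the same 3 WT arrays, so these differences from WT are not independent. The order GlycoLo, WT, GlycoHi without overlap was met by 106 of the 19760 named probe sets (0.536%), and the opposite order by 63 (0.319%). Over the 9 hearts Cited4 had an SD of 0.506, above that of 99.5% of the named probe sets.

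No difference of Cited1 or Cited2 passed the test. Cited2 (1421267_a_at) had 5.72, 5.77 and 5.70 in GlycoHi hearts, 5.84, 5.74 and 5.72 in GlycoLo hearts and 6.12, 5.50 and 5.50 in WT hearts. The transgenic hearts were tightly grouped and WT replicate 1 stood above all others. Its differences from WT were 0.03 ± 0.14 in GlycoHi (interval -0.28 to 0.34) and 0.06 ± 0.14 in GlycoLo (interval -0.25 to 0.37), with adjusted p = 0.957 and 0.924. Cited1 (1449031_at), a coactivator first described in melanocytes, had 3.17, 3.37 and 3.46 in GlycoHi hearts, 3.37, 3.55 and 3.48 in GlycoLo hearts and 3.33, 3.37 and 3.37 in WT hearts. Its level lay at percentile 25.1 of the array on average. An identical value of 3.37 was deposited for 4 of its 9 arrays, as happens for 8.78% of the named probe sets, so its small differences rest on few distinct values. Cited1 differed from WT by -0.02 ± 0.08 in GlycoHi and 0.11 ± 0.08 in GlycoLo (adjusted p = 0.935 and 0.724). GlycoHi minus GlycoLo was -0.13 ± 0.08 for Cited1 and -0.03 ± 0.14 for Cited2. Of 6 melanocyte markers, Tyr, the tyrosinase gene, was at 12.78 ± 0.18 in GlycoHi, 3.22 ± 0.11 in GlycoLo and 3.10 ± 0.20 in WT (SD, n = 3), a separation that Cited1 did not share. The 6 markers did not move together, with 2 differences above 0 and 4 below in GlycoHi against WT.

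**Figure D1:**
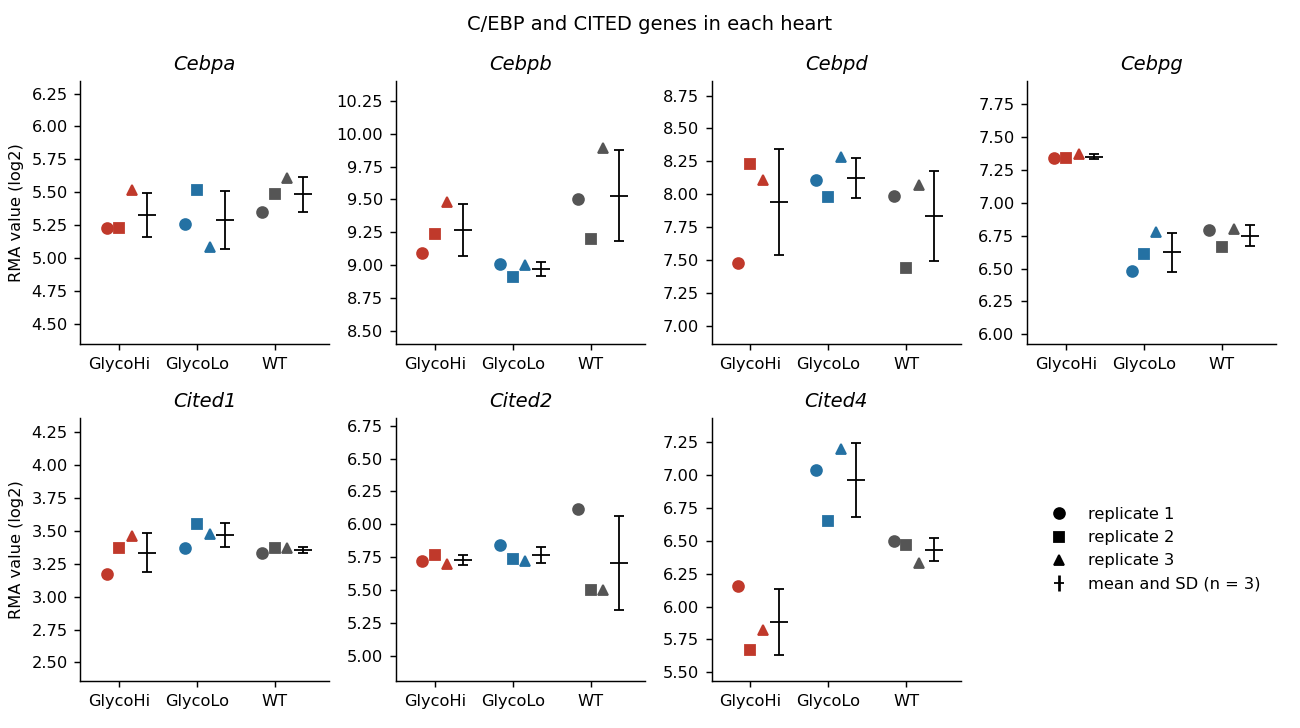
RMA level (log2, vertical axis) of each gene in every heart, with GlycoHi left, GlycoLo in the middle and WT right; marker shapes give the replicate number and bars the mean and SD of 3 mice, and each panel spans the same 2 log2 units. Cebpg is highest in all 3 GlycoHi hearts, Cebpb lowest in all 3 GlycoLo hearts, and Cited4 runs from GlycoLo through WT down to GlycoHi with no overlap.

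Counted together, 1 of the 7 genes was called in GlycoHi against WT (Cebpg, higher), where 2.08% of all probe sets were called. In GlycoHi against GlycoLo, 2 of 7 were called (Cebpg higher, Cited4 lower), where the share was 1.71%. In GlycoLo against WT, limma called 0 of 7, where the share was 0.0844%. An unadjusted p under 0.05 was reached in that comparison by 2 of the 7, Cebpb and Cited4, as it was by 9.48% of all probe sets. Groups did not overlap for 2 of 7 genes in GlycoHi against WT (18.2% of all probe sets), 2 of 7 in GlycoLo against WT (13.2%) and 3 of 7 in GlycoHi against GlycoLo (16.8%). Median differences over the 7 genes were -0.02, 0.06 and -0.03 in the same order, against 0.00, 0.01 and 0.00 over the named probe sets. No exact permutation test is given for single genes, since groups of 3 mice cannot take it below p = 0.1. Nothing in the labels says how the animals relate beyond being separate mice, and 3 per group sets the precision.

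**Figure D2:**
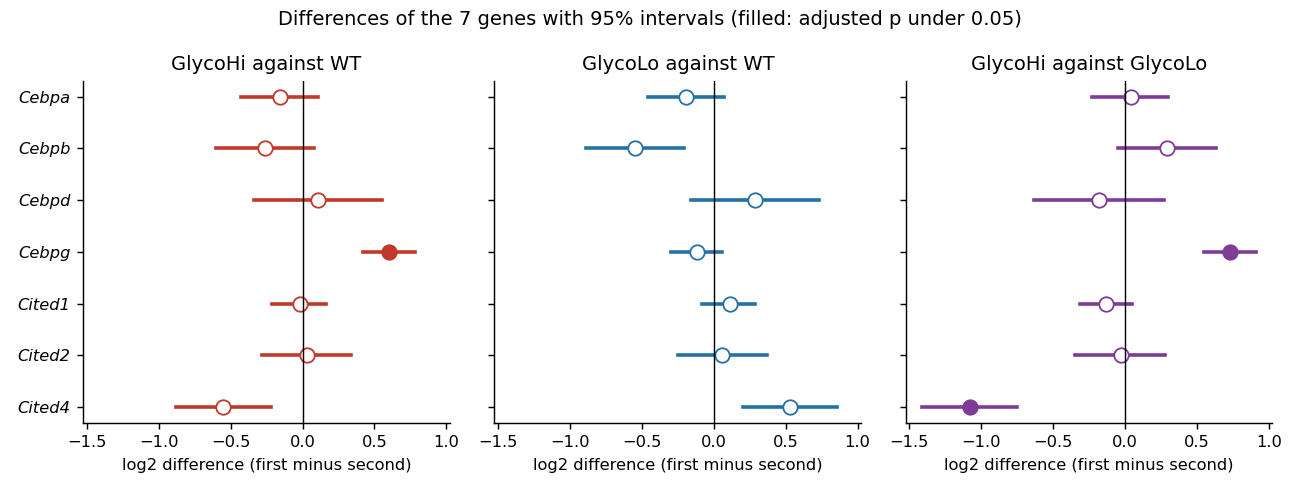
Log2 difference of each of the 7 genes (points) with its 95% interval (lines) in GlycoHi against WT, GlycoLo against WT and GlycoHi against GlycoLo, first group minus second; filled points were called. The intervals of Cebpb in GlycoLo against WT, of Cebpg in both GlycoHi comparisons and of Cited4 in all 3 panels exclude 0, although only Cited4 in GlycoHi against GlycoLo and Cebpg in both GlycoHi comparisons were called after adjustment over all probe sets.

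The authors' deposited table gives adjusted p-values for the same rows. It lists Cebpg at 0.00360 in GlycoHi against WT and at 0.00110 between the lines. Cited4 stands at 0.00419 between the lines, 0.103 in GlycoHi against WT and 0.274 in GlycoLo against WT in the authors' deposited table. For Cebpb in GlycoLo against WT the authors' deposited table has 0.267.

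The 3 calls among the 7 genes held under each of 17 alternatives, including each array left out in turn. Cebpg in GlycoHi against WT ranged from 0.44 to 0.63 with an adjusted p of at most 0.0233. Cited4 between the lines ranged from -1.24 to -0.68 with an adjusted p of at most 0.0281, the smallest size coming from an offset of 50 added before the logarithm. The difference of Cited4 in GlycoHi against WT passed under 1 alternative, a trended and robust variance (adjusted p = 0.0411). Cebpb in GlycoLo against WT passed under none, its adjusted p running from 0.137 to 0.474, and neither did Cited4 in GlycoLo against WT, from 0.129 to 0.553.

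**Figure D3:**
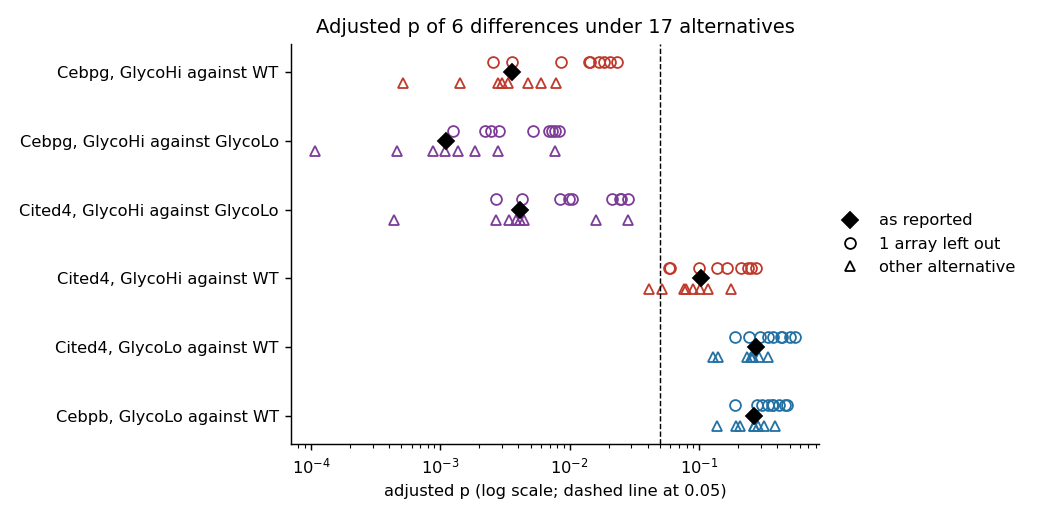
Adjusted p (log axis) of 6 differences, as reported (diamonds), with 1 array left out (circles) and under the other alternatives (triangles); the dashed line marks 0.05. All points of Cebpg in both GlycoHi comparisons and of Cited4 between the lines lie left of the line, and those of Cebpb and Cited4 in GlycoLo against WT lie right of it.

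Relatives and partners of the 7 genes were counted from lists of related genes. Over all probe sets, an unadjusted p under 0.05 was reached by 14.5% in GlycoHi against WT and 9.48% in GlycoLo against WT. Between the lines the share was 12.9%. These shares are the background for such counts in every list below. Of 12 bZIP relatives, 2 rose in GlycoHi against WT and 0 fell, where 3.12% of the named probe sets were called: Atf5 by 2.26 ± 0.07 (adjusted p = 7.65e-08) and Ddit3, which encodes the C/EBP homologous protein CHOP, by 0.59 ± 0.10 (adjusted p = 0.0121). The list's median was 0.11. Between the lines the same 2 genes rose, by 2.20 ± 0.07 and 0.75 ± 0.10, where 2.52% were called. Atf4, a dimer partner of C/EBP gamma, averaged 7.79 ± 0.15 in GlycoHi, 7.27 ± 0.08 in GlycoLo and 7.32 ± 0.23 in WT (SD, n = 3), and its differences were not called (adjusted p = 0.0717 against WT and 0.0541 between the lines). For GlycoLo against WT limma called 0 of the 12, where 0.142% of the named probe sets were called. In that comparison 4 of the 12 had an unadjusted p under 0.05, as did 9.48% of all probe sets. Tef, a clock-linked bZIP factor, had the smallest p there (-0.64 ± 0.12, adjusted p = 0.112). The call of Ddit3 against WT did not hold without GlycoHi replicate 3 or WT replicate 2 (highest adjusted p = 0.0621), or with only the 6 arrays compared (adjusted p = 0.0532). The list's count of 2 in GlycoHi against WT became 4 with a trended and robust variance. Between the lines it became 4 without dim probe sets (mean under 5) and at an adjusted p under 0.1.

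Few partners of the CITED proteins were called. Arnt, Esr1, Hif1a, Lhx2, Smad3, Tfap2a, Tfap2b and Tfap2c had dim probe sets, with a mean under 5 in each group. Of 13, Epas1, a hypoxia-inducible factor subunit, fell by 0.55 ± 0.12 in GlycoHi against WT (adjusted p = 0.0379) and 12 were not called. In that comparison 3.12% of the named probe sets were called. The Epas1 call was lost on leaving out any single array except GlycoLo replicate 3 (adjusted p up to 0.129), and also with only the 6 arrays compared and with an offset of 50 (adjusted p = 0.0576 and 0.0509). None was called by limma in GlycoLo against WT, where 2 had an unadjusted p under 0.05 and Epas1 the smallest (-0.30 ± 0.12), or between the lines, where 3 did and Smad4, the common partner of SMAD factors, had the smallest (0.21 ± 0.07). Ep300, the coactivator that CITED proteins bind, stood at 8.61 ± 0.03 in GlycoHi, 8.51 ± 0.06 in GlycoLo and 8.53 ± 0.05 in WT, and Crebbp, its paralog, at 5.92 ± 0.07 in GlycoHi, 5.55 ± 0.24 in GlycoLo and 5.78 ± 0.16 in WT (SD, n = 3). Of 13 targets of hypoxia-inducible factor, Egln3, an oxygen-sensing prolyl hydroxylase, fell between the lines by 0.62 ± 0.12 (adjusted p = 0.0325), which did not pass when GlycoHi replicate 2 or 3, or any GlycoLo array, was left out (highest adjusted p = 0.134), or with an offset of 50 (adjusted p = 0.0516). Between the lines 2.52% of the named probe sets were called. None of the 13 targets was called against WT in either line. An unadjusted p under 0.05 was reached by 4 in GlycoHi and 3 in GlycoLo (14.5% and 9.48% of all probe sets). Egln3 had the smallest p in GlycoHi (-0.44 ± 0.12), and Slc2a1, a glucose transporter, in GlycoLo (-0.31 ± 0.10). Without GlycoHi replicate 1 the count in GlycoHi against WT was 1. Medians of both lists lay between -0.04 and 0.07 in the 3 comparisons.

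Of 17 genes of the cardiac growth programme, 4 fell and 1 rose in GlycoHi against WT: Hand2 by 0.56 ± 0.12, Myocd by 0.48 ± 0.10, Mef2c by 0.46 ± 0.09 and Gata6 by 0.44 ± 0.09, all cardiac transcription factors or coactivators, while Srf, the serum response factor, rose by 0.30 ± 0.07 (adjusted p = 0.0498). In GlycoHi against WT 3.12% of the named probe sets were called. The 5 calls of this list shrank to between 0 and 3 when any single array was left out. With only the 6 arrays compared they shrank to 2. Limma called 0 of 17 in GlycoLo against WT, with 2 at an unadjusted p under 0.05 (9.48% of all probe sets). Srf had the smallest p there (0.30 ± 0.07, adjusted p = 0.156). Between the lines limma called 0 of 17, with 7 at an unadjusted p under 0.05 (12.9% of all probe sets). Mef2c had the smallest p there (-0.38 ± 0.09), and 1 of the 17 was called without WT replicate 2. Gata4, Tbx5 and Nkx2-5 are known to rise in mouse heart when C/EBP beta is lowered, and none was called. Gata4 differed from WT by -0.19 ± 0.12 in GlycoHi and 0.03 ± 0.12 in GlycoLo. Tbx5 differed by -0.36 ± 0.12 in GlycoHi and 0.11 ± 0.12 in GlycoLo, and Nkx2-5 by 0.08 ± 0.09 in GlycoHi and 0.26 ± 0.09 in GlycoLo. Of 14 proliferation genes, 3 rose in GlycoHi against WT: Ccnd2 (cyclin D2) by 1.48 ± 0.16, the replication licensing gene Mcm2 by 0.79 ± 0.11, and Cdkn1a, an inhibitor of cell division, by 0.70 ± 0.15. Ccnd2 and Mcm2 also rose between the lines (1.48 ± 0.16 and 0.78 ± 0.11), where 2.52% of the named probe sets were called. Mcm2 was dim outside GlycoHi, averaging 5.17 in GlycoHi, 4.39 in GlycoLo and 4.38 in WT. Its difference went as low as 0.28 in both comparisons, and the call held under every alternative that kept its probe set. Without dim probe sets the number called between the lines was 1. Of the same 14, limma called 0 in GlycoLo against WT, with 0 at an unadjusted p under 0.05, and Aurka, a mitotic kinase, stood at -0.23 ± 0.11. The mitotic markers Mki67 and Cdk1 were not called in any comparison. The Cdkn1a call depended on 6 arrays, namely GlycoHi replicates 1 and 2, GlycoLo replicates 2 and 3, and WT replicates 1 and 2, with an adjusted p of up to 0.140 when one of them was left out. It was also lost with only the 6 arrays compared and with an offset of 50 (adjusted p = 0.0889 and 0.0597).

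Genes that C/EBP factors are known to switch on leaned below WT in both lines, with few calls. Of 20, 16 differences were negative in GlycoHi and 16 in GlycoLo, where 49.6% and 46.9% of all named probe sets were negative, with medians of -0.21 and -0.20. Csf3r, G6pc, Il1r1, Il6, Lcn2, Lep, Orm1, Pck1 and Ptgs2 were dim, with a mean under 5 in each group. Il1b, an inflammatory cytokine, fell in GlycoHi by 0.53 ± 0.08 (adjusted p = 0.00552) and was the 1 called member, with 2 called when WT replicate 1 was left out. Its probe set was near the dim limit, averaging 4.98 in GlycoHi, 5.25 in GlycoLo and 5.51 in WT. Its difference ran from -0.61 to -0.23 over the 17 alternatives and kept its call. Of the named probe sets, 3.12% were called in GlycoHi against WT, 0.142% in GlycoLo against WT and 2.52% between the lines. An unadjusted p under 0.05 was reached by 14.5%, 9.48% and 12.9% of all probe sets in the same order. In GlycoLo limma called 0 of 20, with 7 at an unadjusted p under 0.05, and Socs3, a brake on cytokine signalling, had the smallest p (-0.76 ± 0.20, adjusted p = 0.225), and between the lines 0 of 20 were called, 1 having an unadjusted p under 0.05 (Il1b, -0.27 ± 0.08). Both lists of differences use the same WT hearts, and WT replicate 3 had the highest mean level of this list (5.65, against 5.24 and 5.39 in the other WT hearts). The list shares Adipoq, Fabp4, Lep and Pck1 with the white adipocyte markers, Cd14 with the macrophage and Csf3r with the neutrophil markers. White adipocyte markers had medians of -0.28 in GlycoHi and -0.22 in GlycoLo against WT, and were also highest in WT replicate 3 (6.34), and their part in the list's values was not tested. Of 12 glucocorticoid response genes, Dusp1 fell in GlycoHi by 0.71 ± 0.13 (adjusted p = 0.0171), which did not pass on leaving out GlycoHi replicate 1 or 3, or WT replicate 2 or 3 (highest adjusted p = 0.0746). This list also leaned below WT, with 9 negative differences in GlycoHi and 9 in GlycoLo, and medians of -0.21 and -0.26. Limma called 0 in GlycoLo against WT, where 4 had an unadjusted p under 0.05, led by Per1 (-0.50 ± 0.15). Between the lines 0 were called and 3 had an unadjusted p under 0.05, led by Klf15 (0.41 ± 0.12). Leaving out GlycoLo replicate 2 made the number called 1 in GlycoLo against WT and 1 between the lines. Of 10 genes of cytokine receptors and STAT3 limma called 0 in each comparison, with 3 at an unadjusted p under 0.05 in GlycoHi against WT, 2 in GlycoLo against WT and 2 between the lines. Stat3 had the smallest p in GlycoHi against WT (-0.28 ± 0.06, adjusted p = 0.0589) and against GlycoLo (-0.23 ± 0.06, adjusted p = 0.123), and Socs3 in GlycoLo against WT.

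Cebpb and Cebpd are themselves induced early after a stimulus, so immediate early genes were counted with them. Of 23, Dusp1 among them again, 12 fell in GlycoHi against WT and 0 rose (median -0.62), led by Fos at -2.56 ± 0.25, Nr4a2 at -0.99 ± 0.20, Nr4a1 at -0.91 ± 0.16 and Btg2 at -0.74 ± 0.12. Of the named probe sets, 3.12% were called in GlycoHi against WT, 0.142% in GlycoLo against WT and 2.52% between the lines. The count of 12 was 7 without WT replicate 2 or without GlycoHi replicate 1. Fos kept its call with each array left out; Btg2 lost it without WT replicate 2, Nr4a1 without that array or GlycoHi replicate 1 or 2, and Nr4a2 without any of 6 arrays (adjusted p up to 0.0507, 0.0713 and 0.128). Nr4a2 also lost it with only the 6 arrays compared and with an offset of 50 (adjusted p = 0.0744 and 0.0675). In GlycoLo against WT the median was -0.32 and Junb alone was called, falling by 0.57 ± 0.07 (adjusted p = 0.0200), which did not pass when any GlycoLo or any WT array was left out (highest adjusted p = 0.106). The count of 1 became 0 with only the 6 arrays compared, 3 without dim probe sets, 2 with an offset of 50 and 6 with a trended and robust variance. Between the lines 3 fell, namely Fos (-1.59 ± 0.25), Nr4a3 (-0.64 ± 0.13) and Fosl2 (-0.39 ± 0.07), and the calls of Nr4a3 and Fosl2 were lost on leaving out any of 7 and of 4 arrays (adjusted p up to 0.124 and 0.0655). With only the 6 arrays compared both were lost as well (adjusted p = 0.0724 and 0.0521), and Nr4a3 also with the offset (adjusted p = 0.0599). The number of calls between the lines was 1 without GlycoLo replicate 1 or 3 or GlycoHi replicate 1. Set beside these, Cebpb differed from WT by -0.26 in GlycoHi and -0.55 in GlycoLo, and Fos by -2.56 in GlycoHi and -0.96 in GlycoLo. Cebpd lay the other way, at 0.11 in GlycoHi and 0.29 in GlycoLo against WT, and was not called. The Fos lines were separated by the test and the Cebpb lines were not.

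**Figure D4:**
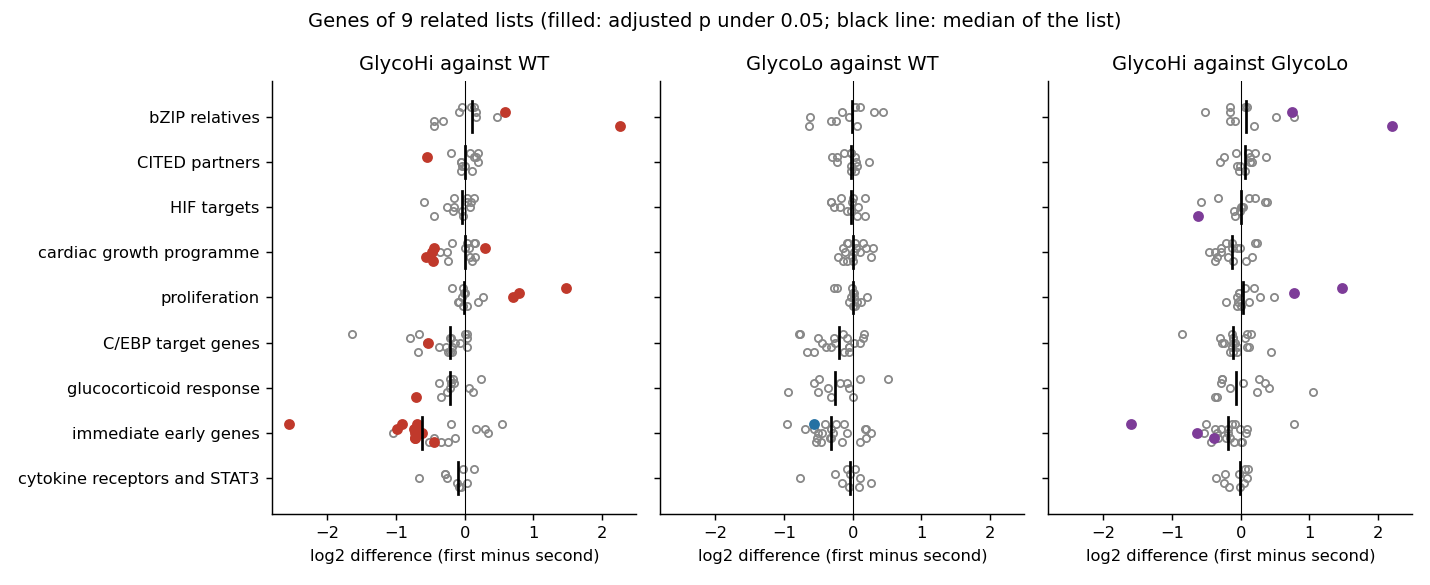
Log2 difference (first group minus second) of every measured gene in 9 related lists, in GlycoHi against WT, GlycoLo against WT and GlycoHi against GlycoLo; filled points were called and black lines are list medians. The immediate early list has the lowest median, -0.62 in GlycoHi against WT, and Atf5 stands apart among the bZIP relatives at 2.26.

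Cell type markers were set beside these genes, since in whole hearts fewer cells of a type and less RNA per cell cannot be told apart. Of the named probe sets, 3.12% were called in GlycoHi against WT and 0.142% in GlycoLo against WT. No alternative was run for the marker lists, so their calls rest on the main model. Cardiomyocyte markers had mean levels over 10 genes of 10.62 to 10.67 in GlycoHi, 10.75 to 10.85 in GlycoLo and 10.86 to 10.91 in WT, and Myh6 was the 1 member called in GlycoHi, lower by 0.70 ± 0.10. The lowest of these markers on the array lay at percentile 53.7 in GlycoHi, 57.3 in GlycoLo and 55.9 in WT. White adipocyte markers, from cells rich in Cebpa, had mean levels over 9 genes of 5.24 to 5.46 in GlycoHi, 5.40 to 5.79 in GlycoLo and 5.64 to 6.34 in WT. Thrsp was their 1 called member (-0.98 ± 0.10 in GlycoHi against WT), 0 were called in GlycoLo, and Lep lay below percentile 25 of the array in each group. WT replicate 3, the heart with the highest Cebpa and Cebpb, also had the highest adipocyte level (6.34). Macrophage markers, from cells that express Cebpa and Cebpb, had mean levels over 10 genes of 7.43 to 7.63 in GlycoHi, 7.41 to 7.56 in GlycoLo and 7.57 to 7.67 in WT, with none called. The part of these cells in the Cebpa and Cebpb values was not tested. Pfkfb1, a phosphofructokinase 2 gene, measured 14.40 to 14.43 in GlycoHi, 14.34 to 14.37 in GlycoLo and 7.74 to 7.97 in WT. It separates transgenic from WT arrays and does not check which transgenic array is GlycoHi or GlycoLo. Array medians lay between 4.76 and 4.80, and correlations between arrays, across probe sets, between 0.994 and 0.997.

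For each of the 7 genes, the genes with the most similar values over the 9 arrays were found by Pearson's r among 3069 named genes with an SD of at least 0.2. These are descriptions over 9 hearts that share 3 genotypes. Nearest to Cited4 were Dhrs7c (r = 0.97), Ppih (0.96) and Gja3 (0.95). Dhrs7c, a sarcoplasmic reticulum dehydrogenase, averaged 9.52 in GlycoHi, 10.33 in GlycoLo and 10.06 in WT. Nearest to Cebpg were Spg20 (r = 0.98), Xist (0.97) and Dhx9 (0.97), and Dhx9, an RNA helicase, averaged 7.64 in GlycoHi, 6.81 in GlycoLo and 6.88 in WT. Nearest to Cebpb were Mcf2l (r = 0.96), Timp4 (0.94) and Fam117b (0.91). Timp4, a metalloproteinase inhibitor, averaged 5.20 in GlycoHi, 4.84 in GlycoLo and 5.53 in WT. Cebpa lay nearest to Trh (0.94), Mt1 (0.92) and Uba2 (0.90), and Cebpd to Zscan22 (0.91), Ddit4 (0.86) and S1pr1 (0.86). Cited1 lay nearest to Gas7 (0.96), Msi1 (0.90) and AU017263 (0.88), and Cited2 to Akap5 (0.96), Mcmbp (0.91) and Fam102a (0.88).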

How the data were processed

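RNA from 9 hearts was hybridised to Affymetrix mouse arrays after biotin labelling, as the labels' protocols state. For each probe set and array the authors deposited a log2 value. The submitters' processing notes name RMA and limma, while settings, array build and versions are not stated in the sources at hand. Another deposited table repeats these log2 values (largest difference 1.8e-15) and adds gene symbols, an SD score over the arrays, log2 differences, p-values and adjusted p-values of the authors. The 64 control probe sets of 45101 were left out. Each symbol has 1 listed probe set; other probe sets of these genes could not be named.

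One model with 3 genotypes was fitted to all 9 arrays with limma 3.58.1 in R 4.3.3 (6 residual and 4.66 prior degrees of freedom) and tested on simulated data. Errors after a difference are the model's SE, after a level the SD. Genes were named by a rule: the 7 members; up to 4 called genes with the largest difference per list and comparison, or the smallest p where none was called; and 3 genes of most similar pattern per member. Srf in GlycoHi, Atf4, Ep300, Crebbp, Gata4, Tbx5, Nkx2-5, Mki67, Cdk1 and the Fos difference in GlycoLo were added after their values were seen. The 7 members and all lists were chosen with earlier results of these data known. The groups use the same replicate numbers, which no label ties to a litter, batch or day. Figures were drawn with matplotlib 3.10.9.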

Additional observations from a re-analysis of the deposited data

Results flagged for a closer look

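The 2 transgenic lines differed in Cebpg by the direct test: the difference from WT was larger in GlycoHi than in GlycoLo by 0.73 ± 0.08 on the log2 scale (adjusted p = 0.00110 in limma), and all 3 GlycoHi hearts lay above all 3 GlycoLo hearts. For Cited4 the GlycoHi difference from WT minus that of GlycoLo was -1.08 ± 0.15 (adjusted p = 0.00416), and all 3 GlycoHi hearts lay below WT and all 3 GlycoLo hearts above it. Each transgene was studied in hearts that also differ by line (Tyr at 12.78 in GlycoHi, 3.22 in GlycoLo and 3.10 in WT), so transgene and line cannot be told apart.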

How the results depend on the processing

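Of 21 differences of the 7 genes, 3 were called under every alternative run, 17 under none, and 1 (Cited4 in GlycoHi against WT) under a trended and robust variance, which moved the number of the 7 genes called in GlycoHi against WT to 2. Adding the replicate number as a block did not change the number of the 7 genes called. It stayed at 0 in GlycoLo against WT, 1 in GlycoHi against WT and 2 between the lines. The block gave 17 called probe sets in GlycoLo against WT. After removal of group means, same-numbered arrays correlated at -0.02 to 0.12, with 2 of 9 pairs over 0.1. Arrays of different numbers correlated at -0.11 to 0.06, with 0 of 18 pairs over 0.1. These ranges overlap and cannot settle whether the numbers pair the hearts. With this block the adjusted p was 0.0725 for Junb in GlycoLo against WT, 0.0740 for Epas1, 0.0664 for Cdkn1a and 0.0642 for Hand2 in GlycoHi against WT, and 0.0584 for Nr4a3 between the lines. Counts of called probe sets moved more. In GlycoLo against WT (38) they were 15 with only the 6 arrays compared, 156 without dim probe sets (mean under 5), 134 with an offset of 50, 256 with a trended and robust variance, 96 at an adjusted p under 0.1, and 13 to 37 with 1 array left out. In GlycoHi against WT (938) they were 502, 1752, 1620, 1875 and 1659 under the same settings, and 429 to 769 with 1 array left out. Between the lines (771) they were 444, 1323, 1271, 1547 and 1274, and 375 to 651. Among the 7 genes only small uncalled differences changed sign, each with 1 array left out. Cited2 ran from -0.04 to 0.27 in GlycoLo against WT, from -0.08 to 0.24 in GlycoHi against WT and from -0.06 to 0.00 between the lines. Cebpd ran from -0.09 (and -0.04 without GlycoHi replicate 2) to 0.34 in GlycoHi against WT and from -0.33 to 0.05 between the lines, Cited1 from -0.09 to 0.06 in GlycoHi against WT, and Cebpa from -0.07 to 0.15 between the lines. A common median, cyclic loess and array weights changed no call of the 7 genes. The lists of related genes, and the genes named from them by the rule, were run under the same alternatives, chosen after seeing the data. No alternative was run for the cell type marker lists, or singly for the differences added after their values were seen. The cause of these shifts was not tested, apart from the offset, which shrinks differences of dim probe sets by construction.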

Other observations

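Markers of the other cell types in these hearts gave few calls. Cidea, a brown fat lipid droplet gene, fell by 0.74 ± 0.10 in GlycoLo against WT (adjusted p = 0.0200 in limma). It was the 1 brown adipocyte marker of 5 called, where 0.142% of the named probe sets were called. No alternative was run for Cidea. Neutrophil markers averaged 4.24 to 4.31 in GlycoHi, 4.35 to 4.48 in GlycoLo and 4.34 to 4.54 in WT, and endothelial markers 7.50 to 7.52 in GlycoHi, 7.55 to 7.64 in GlycoLo and 7.57 to 7.73 in WT. Fibroblast markers averaged 7.93 to 8.02 in GlycoHi, 7.87 to 8.05 in GlycoLo and 8.0 to 8.12 in WT. Smooth muscle markers averaged 6.76 to 6.99 in GlycoHi, 6.89 to 7.39 in GlycoLo and 6.92 to 7.38 in WT, and epicardial markers 4.94 to 5.16 in GlycoHi, 5.06 to 5.21 in GlycoLo and 5.22 to 5.42 in WT. Erythroid markers averaged 4.68 to 4.92 in GlycoHi, 4.60 to 4.96 in GlycoLo and 4.99 to 5.27 in WT. Of the melanocyte markers, Tyr rose by 9.68 ± 0.12 and Mlana fell by 0.82 ± 0.16 in GlycoHi against WT, and Dct was higher by 0.57 ± 0.12 in GlycoHi than in GlycoLo. Of the 6 differences in GlycoHi against WT, 4 were below 0 and 2 above. Tyrp1 lay below percentile 25 of the array in each group. Whether melanocytes were present was not tested. Brown adipocyte markers averaged 5.40 to 5.44 in GlycoHi, 5.42 to 5.71 in GlycoLo and 5.50 to 6.27 in WT.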
